A study of Rattus norvegicus with 32 samples.

Results

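The 147 solute carrier genes on the arrays were taken as every gene whose symbol starts with Slc followed by a digit, out of 5022 genes with 1 symbol. Solute carriers are membrane proteins that move amino acids, sugars, ions, nucleosides, vitamins, metals and organic acids across the plasma membrane or the membranes of organelles. Most work by facilitated diffusion, by exchange of 2 substrates, or by coupling uptake to the inward gradient of sodium or protons that the sodium pump and respiration maintain. In the lung they are known for the phosphate, peptide and amino acid uptake of alveolar epithelium, the clearance of serotonin by endothelium, and the bicarbonate and chloride movements that set the airway liquid.

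Lung RNA of male Sprague-Dawley rats of 280 to 300 g was hybridised against a pool of RNA from the organs of untreated control animals, lung among them, on 2-colour spotted arrays, 1 array for each of 32 samples. All bled rats had been anaesthetised with isoflurane, fitted with a pair of arterial catheters and a telemetry device, and left to recover for 7 to 10 days before 40% of their estimated blood volume (taken as 6.5% of body weight) was withdrawn. Lungs were collected after terminal Nembutal anaesthesia at 1, 3, 16, 24, 48 and 72 h after hemorrhage (3 samples each) and at 6 h (5 samples), from sham rats that carried the same instruments and were not bled (6 samples), and from control rats without instruments (3 samples). The sham samples form 1 group without matched times, with 4 to 23 hours given for sham in the labels. The labels do not say how samples map to animals, so a p-value here reflects the scatter among the samples, which may be technical.

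Every value below is a log2 ratio of lung over the organ pool, minus the median of its array, averaged over the spots of the gene. A value of 1 means that the gene's ratio was 2 times that of the median spot. Which dye marked the lung is not given in the sources used here, and the direction was read from the genes: the median over 10 lung markers lay at 0.90 to 2.58 on the 30 arrays used. Since the tissue was measured whole, fewer cells of a type and less RNA per cell cannot be told apart. Of 302 spots for the carriers, 144 genes had 2 and 3 genes had more, and 140 of the 147 had a value on all 30 arrays. All 147 passed the filter on missing values and were tested.

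Sham replicate 2 and 16 h replicate 3 stood apart and were left out of all values unless named. On sham replicate 2 the median over 8 liver markers was 3.34 and that over the lung markers -0.97, and on 16 h replicate 3 they were 3.68 and 1.31, against -1.81 to 0.42 for the liver markers on the kept arrays. Carriers named here for these arrays were chosen after their values were seen. Slc27a2, a fatty acid carrier and acyl-CoA synthetase, stood at 3.14 on sham replicate 2 and at 1.64 on 16 h replicate 3, and at -1.52 to -0.33 on the kept arrays. Slc38a4, an amino acid carrier known from liver, stood at 3.04 and 3.00, against -0.82 to 1.97. Slc10a1, the bile acid uptake carrier of hepatocytes, stood at 1.72 on sham replicate 2, against -2.18 to 0.20. In all, 23 of 146 carriers (15.8%) on sham replicate 2 lay above every kept array and 18 (12.3%) below, with Slc4a2 lowest at -5.36, against 12.6% and 15.3% of all features with a value there. On 16 h replicate 3 these counts were 30 (20.4%) and 20 (13.6%) of 147, against 17.8% and 11.6% of all features. The carriers' shares lay near those of the arrays as a whole. Among the kept arrays, 3 h replicate 2 had the lowest agreement of paired spots (r = 0.623, across spots) and a median correlation with the other arrays of 0.277.

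**Figure D1:**
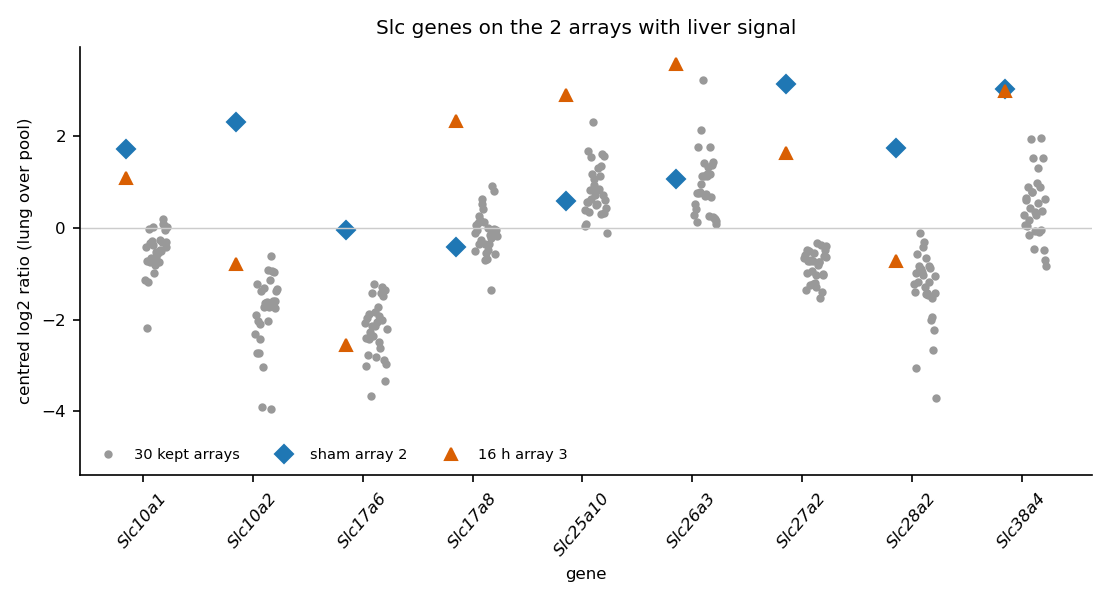
Centred log2 ratio of lung over the organ pool (vertical axis) for 9 solute carrier genes on sham replicate 2 (diamonds), 16 h replicate 3 (triangles) and the 30 kept arrays (grey points, in array order). Slc27a2 stands at 3.14 and 1.64 on these 2 arrays and at or below -0.33 on all kept ones, while Slc17a8 and Slc25a10 stand out on 16 h replicate 3 only.

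In unbled lung, sham and control arrays together (5 and 3), the carriers were spread around the pool. Of the 147, 73 (49.7%) had a mean above 0, against 49.1% of all 5993 features tested, and the medians were -0.02 and -0.02. The mean was over 1 for 3 carriers and under -1 for 22, against 816 of all features (13.6%). On every one of the 8 arrays 28 carriers lay above 0 and 43 below it, and the other 76 had arrays on both sides. The shares of all features are not given here, so these counts do not show a lean of the carriers. A ratio sets lung against the pool for 1 gene at a time, so the order of genes by ratio is not an order by amount of RNA.

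The carriers highest against the pool included the sodium-dependent amino acid carrier Slc38a2, at 1.97 ± 0.23 (SD, n = 8), the phosphate carrier Slc34a2, known from type II pneumocytes, at 1.23 ± 0.75, and the concentrative nucleoside carrier Slc28a1, at 1.13 ± 0.30. Slc38a2 lay between 1.72 and 2.45 on the 8 arrays, whereas Slc34a2 ran from 0.16 to 2.25. Next came Slc4a1, the anion exchanger of red cells, at 0.93 ± 0.23, Slc27a5, a bile acyl-CoA synthetase, at 0.92 ± 0.29, and Slc20a1, a phosphate carrier, at 0.85 ± 0.81. Slc19a1, the reduced folate carrier, Slc35e4, Slc9a5, a sodium-proton exchanger, and Slc29a1, an equilibrative nucleoside carrier, stood between 0.76 and 0.83. Slc6a4, the serotonin carrier, stood at 0.71 ± 0.30 and was above 0 on all 8 arrays.

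At the low end stood carriers of several kinds. The vesicular glutamate carrier Slc17a6 had a mean of -2.35 ± 0.39, the vesicular monoamine carrier Slc18a2 of -2.22 ± 0.97, the ileal bile acid carrier Slc10a2 of -2.18 ± 0.50 and the astrocyte glutamate carrier Slc1a2 of -1.85 ± 0.54. Slc24a2, a potassium-dependent sodium-calcium exchanger, and Slc7a9, the light subunit of the renal cystine carrier, both had a mean of -1.81. Slc2a1, the widely expressed glucose carrier, had -1.71 ± 0.29, and Slc6a5, the glycine carrier of inhibitory neurons, -1.71 ± 0.69. Slc40a1, the iron exporter ferroportin, stood at -1.62 ± 0.43 and Slc30a2, a zinc carrier, at -1.46 ± 1.36. Slc18a2 and Slc40a1 were measured on 7 of the 8 arrays, and all 10 genes were below 0 on each array that measured them. Keeping sham replicate 2 moved Slc38a2 to 1.62 and Slc10a2 to -1.68, and of 27 carriers checked these 2 moved by more than the spread of the arrays.

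Grouped by what they carry, the metal carriers were lowest, with a median of -1.06 over 7 genes of which 1 (Slc31a1, the copper carrier, 0.27) was above 0. The vesicular transmitter carriers had a median of -0.94 over 7 genes, of which 2 were above 0, with Slc17a7 highest at 0.49. The chloride and bicarbonate carriers had a median of -0.46 over 17 genes. The 19 carriers of other amino acids had a median of 0.24 with 12 above 0, from -1.81 for Slc7a9 to 1.97 for Slc38a2. The 13 mitochondrial carriers stayed within -0.72 (Slc25a4) and 0.68 (Slc25a1), the narrowest span of the groups with over 10 genes.

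**Figure D2:**
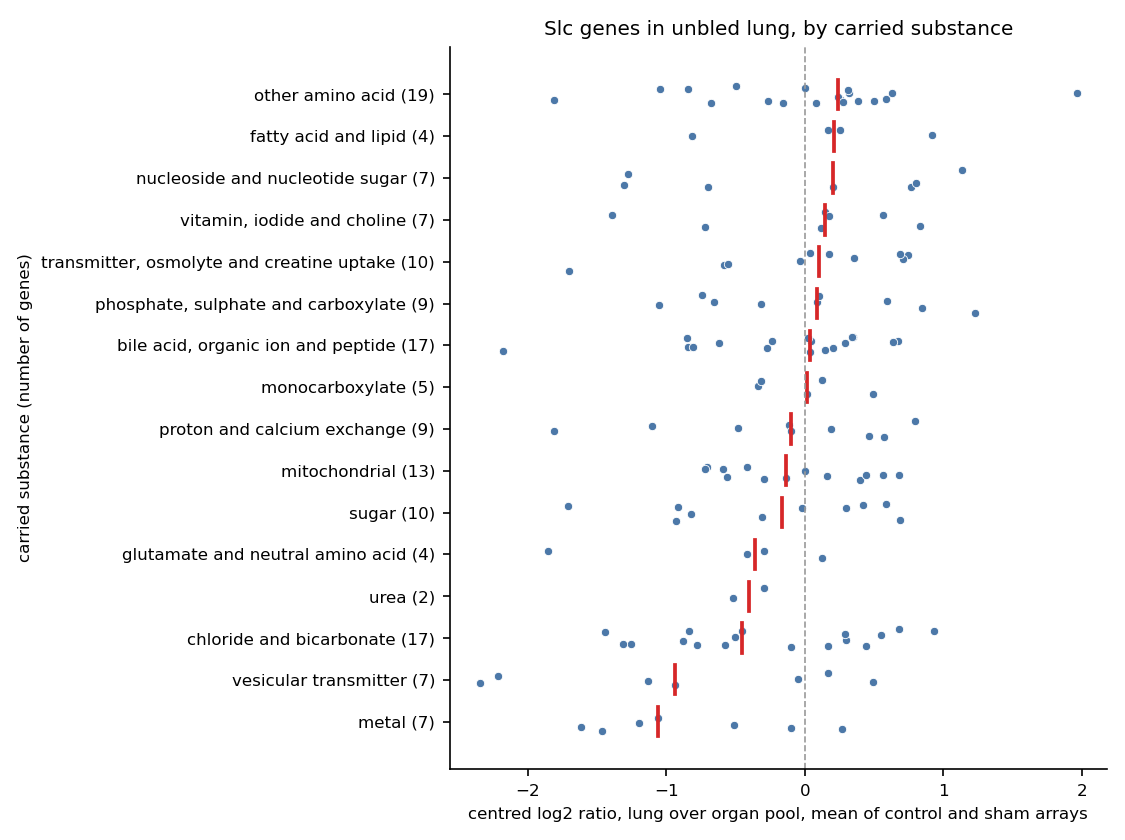
Mean centred log2 ratio of lung over the organ pool on the 8 unbled arrays (horizontal axis) for the 147 solute carrier genes, grouped by carried substance with the number of genes in brackets. Each point is 1 gene, the red bar is the group median and the dashed line marks the array median. Metal carriers have the lowest median, -1.06, and the carriers of other amino acids the highest, 0.24.

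Instrumentation without bleeding was examined by setting sham against control. No carrier was called at an adjusted p under 0.05 in limma, where 0% of all features were called, and 5 of 147 carriers (3.40%) and 4.71% of all features had an unadjusted p under 0.05. The smallest p belonged to Slc18a3, the vesicular acetylcholine carrier, with a log2 difference of 2.13 and an adjusted p of 0.934. Its sham values ran from -0.82 to 0.50, and its control values were -4.98, -1.29 and -0.54. The difference rested on control replicate 1 and was 0.78 without it.

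Over all times, a joint test of any of the 7 times against sham called 11 carriers (7.48%), where it called 5.69% of all features. They were the amino acid carriers Slc38a1, Slc1a1 and Slc1a6, the organic ion carriers Slc22a5, Slc22a6, Slc22a8 and Slc22a25, the anion exchanger Slc4a2, the vitamin C carrier Slc23a2, the sodium-proton exchanger Slc9a5 and Slc16a10, a carrier of aromatic amino acids. Slc22a8 (adjusted p = 0.00673), Slc38a1 (0.0142) and Slc22a5 (0.0163) also passed with each of the 30 arrays left out in turn. With all 32 arrays Slc22a8 and Slc22a5 passed (adjusted p = 0.0119 and 0.0187) and Slc38a1 did not (adjusted p = 0.187). The other 8 lost the call in 7 to 22 of the 30 omissions, and with an adjusted p of at most 0.146.

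**Figure D3:**
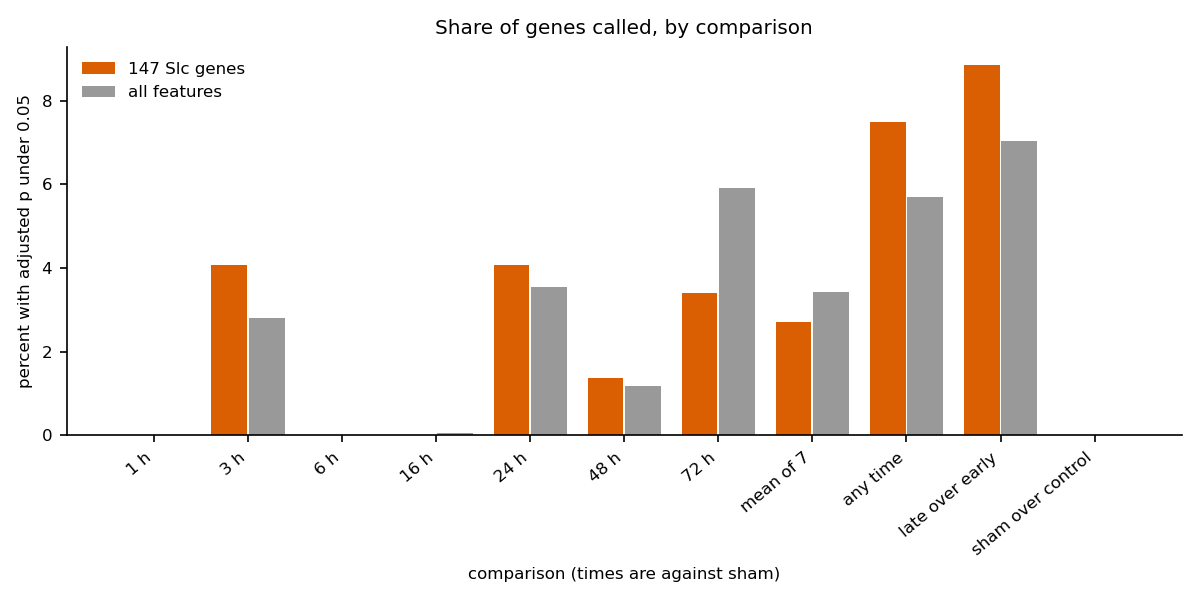
Percent of the 147 solute carrier genes (left bar of each pair) and of all 5993 features (right bar) with an adjusted p under 0.05, by comparison. The 2 bars lie close together at 24 and 48 h, the carriers' bar is lower at 72 h, and no carrier is called at 1, 6 or 16 h or between sham and control.

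To show the regions around an annotated transcript start of carriers whose calls at 3 or 24 h held with every array left out in turn, their promoters are given here from RefSeq (build GRCr8), 250 bases before to 50 after that start, read 5′ to 3′ on the gene's strand. Capitals mark matches on either strand (CCGCCC is GGGCGG on the other strand) to the box CCAAT, to the Sp1 site GGGCGG, to the box TATAAA, to ACGTG as the core of hypoxia response elements, and to GTTAAT as part of the site of Hnf1 factors.
Slc38a1 (chr7:129681352-129681651, minus strand): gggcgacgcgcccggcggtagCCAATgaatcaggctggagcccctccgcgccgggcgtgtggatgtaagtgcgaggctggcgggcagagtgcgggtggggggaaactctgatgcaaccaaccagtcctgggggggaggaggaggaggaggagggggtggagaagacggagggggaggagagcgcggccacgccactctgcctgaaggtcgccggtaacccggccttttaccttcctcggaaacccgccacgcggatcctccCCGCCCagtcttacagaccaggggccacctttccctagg
Slc1a6 (chr7:11520958-11521257, minus strand): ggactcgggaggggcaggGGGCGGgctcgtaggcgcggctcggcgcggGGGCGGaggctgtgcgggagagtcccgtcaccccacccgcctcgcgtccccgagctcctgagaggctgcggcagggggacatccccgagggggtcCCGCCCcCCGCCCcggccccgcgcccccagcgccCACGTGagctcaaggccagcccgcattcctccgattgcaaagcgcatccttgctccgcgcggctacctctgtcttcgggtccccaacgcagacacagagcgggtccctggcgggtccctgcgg
Slc22a8 (chr1:214927034-214927333, plus strand): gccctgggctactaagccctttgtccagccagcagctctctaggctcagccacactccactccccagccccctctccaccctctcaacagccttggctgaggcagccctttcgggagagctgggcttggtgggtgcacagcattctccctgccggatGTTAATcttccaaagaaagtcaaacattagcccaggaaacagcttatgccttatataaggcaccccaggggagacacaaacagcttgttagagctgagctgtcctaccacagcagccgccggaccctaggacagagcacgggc
Slc22a5 (chr10:38536023-38536322, minus strand): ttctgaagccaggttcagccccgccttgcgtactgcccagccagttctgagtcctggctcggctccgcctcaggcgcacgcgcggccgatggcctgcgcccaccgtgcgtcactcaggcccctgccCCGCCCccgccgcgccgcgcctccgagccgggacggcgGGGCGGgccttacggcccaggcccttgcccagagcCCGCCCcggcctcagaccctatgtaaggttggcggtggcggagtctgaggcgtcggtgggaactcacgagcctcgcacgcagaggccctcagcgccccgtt
The start used for Slc1a6 is the outer end of its annotated gene span, whereas those of Slc22a5, Slc38a1 and Slc22a8 lie 168, 326 and 1778 bases inside theirs. The whole Slc38a1 and Slc22a8 windows are thus within the gene spans. The Slc1a6 window held 4 matches to GGGCGG and 2 overlapping matches to ACGTG, 1 on each strand. The Slc22a5 window held 3 matches to GGGCGG, the Slc38a1 window 1 to GGGCGG and 1 to CCAAT, and the Slc22a8 window 1 to GTTAAT. Of 33469 promoters in the table, 33.1% held GGGCGG, 37.5% CCAAT, 19.3% ACGTG, 14.2% TATAAA and 7.45% GTTAAT. Of the 133 promoters of the 126 carriers found there these shares were 54.1%, 33.1%, 22.6%, 9.02% and 8.27%. Such a match is a string of letters and does not show that a factor binds.

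At 1 h after hemorrhage no carrier was called, and 0% of all features were. At an unadjusted p under 0.05 there were 20 carriers (13.6%) and 645 features (10.8%). The carrier with the smallest p was Slc38a1, a sodium-coupled carrier of glutamine and other neutral amino acids, at -0.68, -0.58 and -0.27 in 1 h lungs, against 0.18 to 0.49 (median 0.33) in sham lungs, a log2 change of -0.85 ± 0.23 (SE) with an adjusted p of 0.24. Its groups did not overlap, though the call was not made. Slc25a39, a mitochondrial carrier linked to glutathione import, stood at -1.62, -1.57 and -1.48 against -0.89 to 0.15 in sham lungs (log2 change -1.10, adjusted p = 0.292).

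At 3 h, 6 carriers fell and 0 rose, where 1.75% of all features were lower and 1.05% higher. Slc38a1 stood at -0.32, -1.11 and -1.18 in 3 h lungs, against 0.18 to 0.49 in sham lungs, a log2 change of -1.21 ± 0.23 (adjusted p = 0.012). All 3 arrays lay below all sham arrays. Slc1a6, a glutamate carrier known from Purkinje cells, stood at -1.15, -2.05 and -1.59 in 3 h lungs, against -0.64 to 0.10 in sham lungs, a change of -1.34 ± 0.26 (adjusted p = 0.012). Slc7a10, the light subunit of a carrier of small neutral amino acids, stood at -0.08, -0.52 and -1.20 in 3 h lungs, against 0.28 to 0.94 in sham lungs (-1.24 ± 0.29, adjusted p = 0.0249). None of these 3 genes had a 3 h array inside the sham range.

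Slc37a4, which carries glucose 6-phosphate into the endoplasmic reticulum, stood at -2.25, -1.78 and -2.03 in 3 h lungs, against -1.28 to -0.73 in sham lungs (log2 change -1.01 ± 0.26, adjusted p = 0.0376). Slc5a5, the sodium-iodide symporter, stood at -0.34, -0.40 and -0.99 in 3 h lungs, against 0.15 to 0.54 in sham lungs (-0.86 ± 0.23, adjusted p = 0.0428). Slc12a3, the thiazide-sensitive sodium-chloride carrier of the distal kidney tubule, stood at -0.93, -0.90 and -0.33 in 3 h lungs, against -0.47 to 1.02 in sham lungs (-1.23 ± 0.30, adjusted p = 0.0305). It was the only one of the 6 whose groups overlapped, through sham replicate 4. Carriers not called at 3 h also lay wholly outside the sham arrays, and more of them above than below. Those below were Slc2a1, Slc14a1, Slc16a3 and Slc36a1. Those above were Slc10a2, Slc23a2, Slc26a1, Slc26a2, Slc30a9 and Slc9a2. The share of all features without overlap is not given here, at this or the other times. Slc12a3 is also 1 of the 5 measured kidney markers and the only 1 of them called at 3 h. The median change over the 5 was 0.35, so most of the list went the other way. Their median on each array, with Slc12a3 included, lay at -0.90 to 0.11 in 3 h lungs, against -0.20 to 0.43 in sham lungs. Of the other marker lists at 3 h, the median over 3 neutrophil markers lay at 0.49 to 1.61, against -0.62 to 0.00 in sham lungs, with 0 of 3 called. In the red cell list 1 of 4 was called (Gata1, -1.83, adjusted p = 0.012), and in the lung list 1 of 10 (Akap5, -1.11, adjusted p = 0.0135). The part of these markers in the carriers' changes was not tested. The 6 genes come from 5 of the 16 substance groups, with 2 of 19 carriers of other amino acids and 1 each of glutamate, sugar, vitamin and iodide, and chloride carriers.

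The 3 h calls were read without 3 h replicate 2, the array with the lowest agreement of paired spots, and then 4 carriers fell among 102 features called: Slc38a1 (-1.08, adjusted p = 0.0367), Slc1a6 (-1.11, adjusted p = 0.0472), Slc37a4 (-1.13, adjusted p = 0.0495) and Slc7a10 (-1.28, adjusted p = 0.0493). Slc38a1 and Slc1a6 passed with each of the 30 arrays left out. Slc7a10 was lost without sham replicates 1, 5 and 6 or 3 h replicate 3 (adjusted p up to 0.0613), Slc37a4 without sham replicates 1, 3, 5 and 6 or 3 h replicate 1 (up to 0.114), Slc12a3 without the same sham replicates or 3 h replicates 1 and 2 (up to 0.0912), and Slc5a5 in 11 omissions (up to 0.0902). None of the 6 passed with all 32 arrays (0 of 6): Slc38a1 stood at -1.53 on sham replicate 2 and its change was -0.89 (adjusted p = 0.174), and Slc1a6 had -1.15 (adjusted p = 0.0682).

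At 6 h, with 5 arrays against 5, no carrier was called, and 0% of all features were, while 28 carriers and 1119 features (18.7%) had an unadjusted p under 0.05. The phosphate carrier Slc34a2 stood at 0.02, 0.29, -0.69, -1.30 and -0.86 in 6 h lungs, against 0.16 to 2.25 (median 1.12) in sham lungs, a log2 change of -1.59 with an adjusted p of 0.0624. The groups met between 0.16 and 0.29. Slc2a2, a low-affinity glucose carrier, had a change of -1.17 (adjusted p = 0.0722) and Slc6a11, a GABA carrier, of 0.79 (adjusted p = 0.0599). All 5 of the 6 h arrays of Slc6a11 lay at -0.12 to 0.71, above the sham range of -0.69 to -0.32. Without 6 h replicate 1 there were 4 calls among the carriers and 112 among all features, and without 3 h replicate 3 there were 3 and 61.

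At 16 h, with 2 arrays, no carrier was called, where 0.0667% of all features were, and 15 carriers (10.2%) and 837 features had an unadjusted p under 0.05. Slc4a9, of the anion exchanger family, stood at -1.42 and -2.78 in 16 h lungs, against -1.02 to -0.06 in sham lungs (log2 change -1.44, adjusted p = 0.16). Slc6a6, the taurine carrier, stood at -0.92 and 0.25, against 0.48 to 1.28 (-1.18, adjusted p = 0.16). The 2 values of each gene lay more than 1 log2 unit apart. With 16 h replicate 3 and sham replicate 2 included, 1 carrier was called among 99 features.

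At 24 h, 5 carriers fell and 1 rose, where 2.7% of all features were lower and 0.851% higher. Of the 5, 2 are organic ion carriers of the Slc22 family, 2 carry amino acids and 1 exchanges anions. Slc22a8, the organic anion exchanger known as the basolateral uptake step of kidney tubules, stood at -0.98, -1.68 and -1.13 in 24 h lungs, against -0.30 to 0.24 (median -0.03) in sham lungs, a log2 change of -1.28 ± 0.20 (adjusted p = 0.00221). No other group reached so low: the 48 h lungs had -0.23, -0.79 and -0.48, and the 72 h lungs 0.03, 0.39 and 0.50. Slc22a5, the sodium-dependent carnitine carrier, stood at -0.61, -0.69 and -0.75 in 24 h lungs, against 0.29 to 0.48 in sham lungs, a change of -1.04 ± 0.20 (adjusted p = 0.00516). Both passed with each of the 30 arrays left out and with all 32 arrays (Slc22a8 -1.22, adjusted p = 0.00259, and Slc22a5 -1.11, adjusted p = 0.00369). Without centring, which shifted the median of all features at 24 h by -0.18, 0 carriers were higher and 14 lower, among 30 features higher and 389 lower.

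Of the other 3 falls at 24 h, Slc7a3, a cationic amino acid carrier, stood at -1.61, -0.63 and -1.56 in 24 h lungs, against -0.33 to -0.15 in sham lungs (log2 change -1.03 ± 0.27, adjusted p = 0.0327). Slc4a2, a chloride-bicarbonate exchanger found in most epithelia, stood at -0.31, -0.70 and -1.36 in 24 h lungs, against 0.00 to 0.36 in sham lungs (-0.98 ± 0.26, adjusted p = 0.0393). Slc3a1, the heavy subunit that pairs with Slc7a9, stood at -2.52, -1.33 and -3.23, against -1.78 to -0.50 (-1.32 ± 0.36, adjusted p = 0.0415), and 1 of its 24 h arrays lay inside the sham range. Slc11a2, the proton-coupled carrier of ferrous iron, was the 1 carrier that rose, at -0.53, 0.93 and 1.63 in 24 h lungs, against -1.68 to -0.40 in sham lungs (1.73 ± 0.48, adjusted p = 0.0426). Its first 24 h array lay inside the sham range.

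These 4 calls were each lost without 24 h replicate 3: the changes were then -0.70 for Slc4a2 (adjusted p = 0.276), -0.88 for Slc3a1 (adjusted p = 0.3) and 1.26 for Slc11a2 (adjusted p = 0.281), and the adjusted p of Slc7a3 was 0.205. They were also lost without sham replicate 3, 5 or 6, Slc4a2 and Slc7a3 without sham replicate 1, Slc7a3 and Slc3a1 without 24 h replicate 1, and Slc4a2 and Slc11a2 without 24 h replicate 2. With all 32 arrays Slc3a1 passed (adjusted p = 0.0383), Slc11a2 (0.0724) and Slc7a3 (0.159) did not, and Slc4a2 had a change of -0.06 (adjusted p = 0.976), since sham replicate 2 then counts with its value of -5.36. Of the 4 red cell markers at 24 h, Rhag rose (1.55, adjusted p = 0.019), and Gata1 (-0.90), Slc4a1 (-0.14) and Alas2 (-0.08) were not called, with a median change of -0.11. The neutrophil markers ran from 0.29 to 2.73 by median, against -0.62 to 0.00 in sham lungs, with 0 of 3 called, and 1 of 10 lung markers fell (Plvap, -1.20, adjusted p = 0.0391). The kidney markers ran from -0.10 to 0.40 in 24 h lungs, against -0.20 to 0.43 in sham lungs, and 0 of 5 was called. Of 6 brain markers 1 was called lower and 0 higher. The part of these markers in the carriers' changes was not tested.

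**Figure D4:**
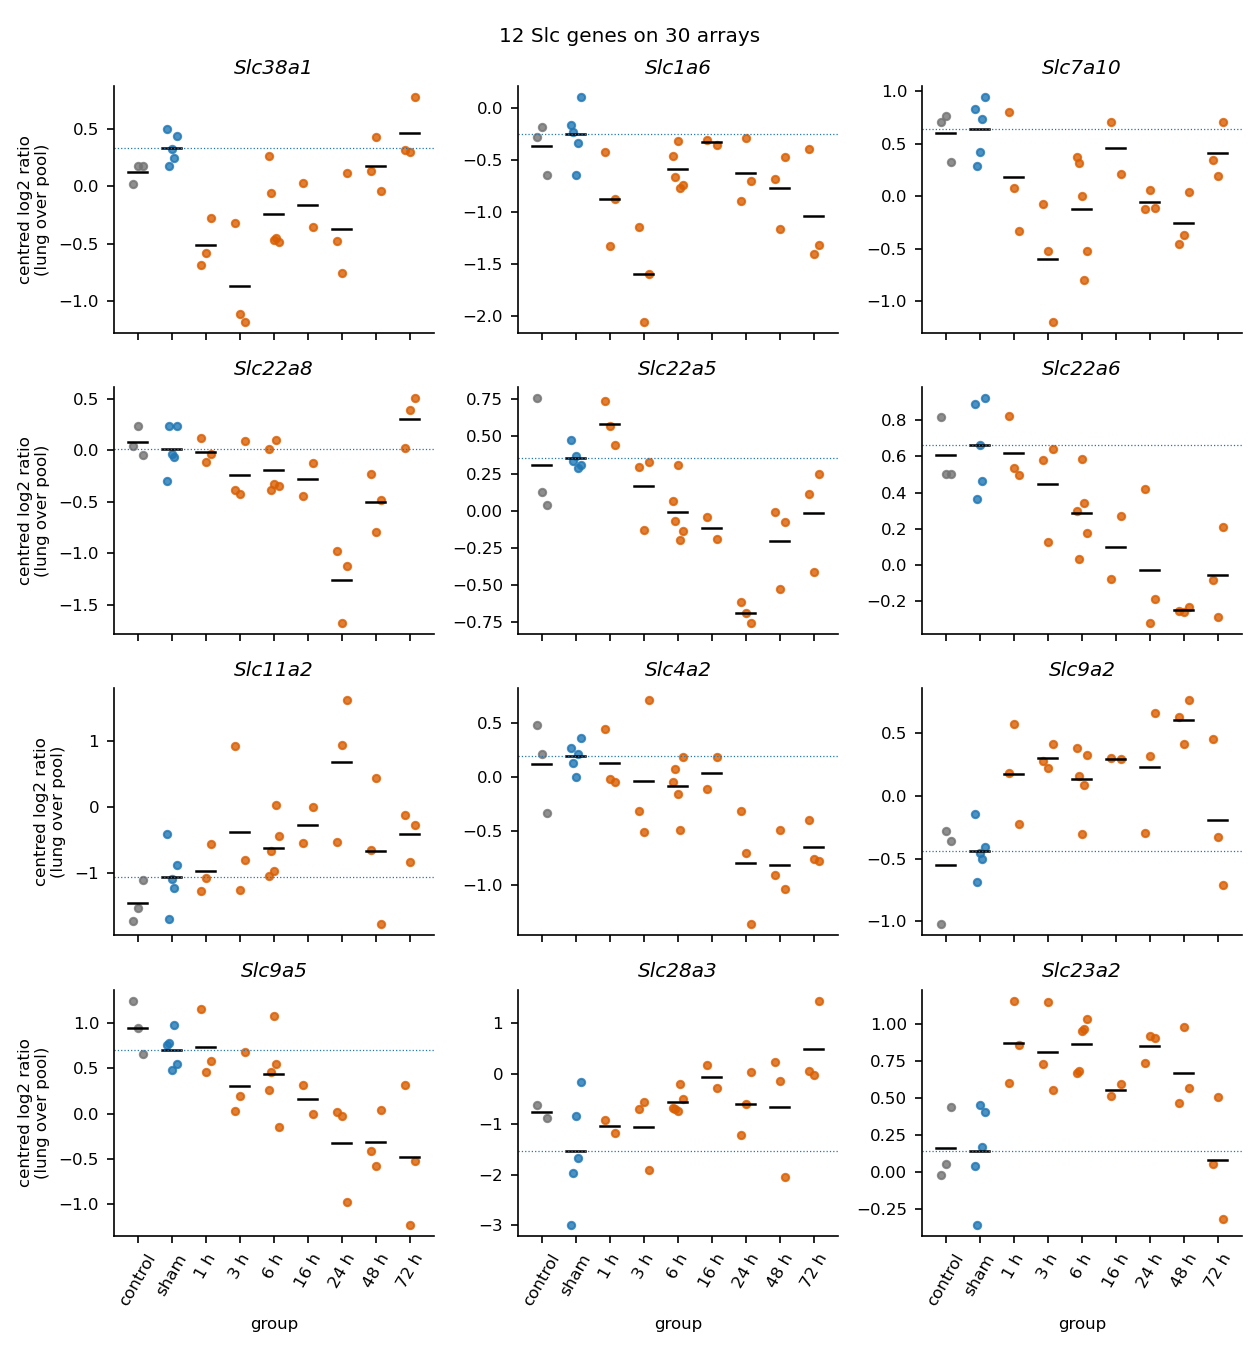
Centred log2 ratio of lung over the organ pool (vertical axes, own scale for each gene) for 12 solute carrier genes on 30 arrays, with control (grey), sham (blue) and the 7 times after hemorrhage (orange) along the horizontal axis. Points are arrays, black bars are group means and the dotted line is the sham mean. Slc38a1 and Slc1a6 are lowest at 3 h and Slc22a8 and Slc22a5 at 24 h, while Slc22a6 is lowest at 48 h with 3 arrays at -0.25, -0.26 and -0.23.

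At 48 h, 1 carrier fell and 1 rose, where 0.868% of all features were lower and 0.3% higher. Slc22a6, the organic anion exchanger paired with Slc22a8 in kidney, stood at -0.25, -0.26 and -0.23 in 48 h lungs, against 0.36 to 0.92 (median 0.66) in sham lungs, a log2 change of -0.91 ± 0.20 (adjusted p = 0.0408). Slc9a2, an epithelial sodium-proton exchanger, stood at 0.63, 0.42 and 0.77 in 48 h lungs, against -0.69 to -0.14 in sham lungs, a change of 1.05 ± 0.26 (adjusted p = 0.0431). Neither gene's groups overlapped. Slc22a6 was lost without sham replicate 1 or 6, any of the 48 h replicates or 1 array of another group (adjusted p up to 0.0859), and Slc9a2 in 13 of the 30 omissions (up to 0.121). Neither passed with all 32 arrays (adjusted p = 0.0799 and 0.0632). Of the 10 lung markers 1 was called at 48 h (Sftpb, -1.32, adjusted p = 0.0421), and the median change over the list was -1.03. Of 6 brain markers 1 was called lower and 0 higher. The part of these markers in the carriers' changes was not tested. The split of the carriers called at 48 h was 0 higher and 1 lower without centring (17 and 57 of all features). With quantile normalization it was 1 higher and 3 lower (43 and 134 of all features).

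At 72 h, 3 carriers fell and 2 rose, where 3.87% of all features were lower and 2.04% higher. The share called was 3.40% of the carriers and 5.91% of all features. At an unadjusted p under 0.05 in limma these shares were 21.1% and 22.4%. Slc9a5, a sodium-proton exchanger known from brain, stood at 0.31, -1.23 and -0.52 in 72 h lungs, against 0.48 to 0.97 in sham lungs (log2 change -1.18 ± 0.31, adjusted p = 0.0242). Slc22a6 stood at -0.08, -0.29 and 0.21, against 0.36 to 0.92 (-0.71 ± 0.20, adjusted p = 0.0387). Slc22a25, of the same family, stood at -0.24, -1.11 and -0.71, against -0.84 to 1.01 (-0.996 ± 0.30, adjusted p = 0.0498), and its groups overlapped. The other 2 falls were without overlap.

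Slc28a3, a concentrative nucleoside carrier of broad substrate range, stood at 0.06, -0.02 and 1.45 in 72 h lungs, against -3.00 to -0.17 (median -1.67) in sham lungs, a log2 change of 2.03 ± 0.53 (adjusted p = 0.0253). Its sham values were widely scattered, and none reached the 72 h arrays. Slc18a1, a vesicular monoamine carrier of endocrine cells, stood at -0.29, -0.43 and -0.57 in 72 h lungs, against -1.40 to -0.85 in sham lungs (0.78 ± 0.24, adjusted p = 0.04999). All 5 calls were lost without 72 h replicate 2, with an adjusted p of 0.222 for Slc9a5, 0.213 for Slc22a6, 0.271 for Slc22a25 and 0.167 for Slc18a1. All 5 were lost without 72 h replicate 3 too, where Slc28a3 had 1.56 (adjusted p = 0.21). Sham omissions also ended calls, at sham replicate 5 for Slc9a5, 1 and 3 for Slc28a3, and 1, 4 and 6 for Slc22a6, which was also lost without 72 h replicate 1. Slc22a25 and Slc18a1 passed in 5 and 7 of 30 omissions. With all 32 arrays Slc9a5 passed (-1.23, adjusted p = 0.0246) and the others did not (adjusted p 0.0737 to 0.0996). With quantile normalization 3 carriers were higher and 8 lower, among 179 features higher and 318 lower.

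At 72 h 5 of the 10 lung markers fell as well, among them Sftpb (-1.50, adjusted p = 0.00827), and the median over the lung markers lay at 0.90 to 1.35, against 1.66 to 2.58 in sham lungs. Of 3 neutrophil markers 1 was called, the collagenase Mmp8, which rose by 4.37 (adjusted p = 0.00164). Of 6 brain markers 2 fell, and of 4 red cell markers 1 rose and 1 fell. No liver, kidney, intestine or muscle marker was called. The part of these shifts in the carriers' changes was not tested. Slc34a2, the carrier of type II pneumocytes, stood at 0.40, 1.02 and 0.56 in 72 h lungs, against 0.16 to 2.25 in sham lungs, with a change of -0.42 (adjusted p = 0.62).

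Against the mean of the 7 times, 2 carriers rose and 2 fell, where 1.4% of all features were higher and 2.02% lower. Slc9a2 rose by 0.66 (adjusted p = 0.0358) and Slc23a2, the sodium-dependent carrier of vitamin C, by 0.53 (adjusted p = 0.0477). Slc23a2 stood at 0.47 to 1.16 on all 19 arrays from 1 to 48 h, above the highest sham array at 0.46, and at 0.05, 0.51 and -0.32 in 72 h lungs. Slc22a6 fell by 0.50 on the log2 scale (adjusted p = 0.0452) and Slc38a1 by 0.55 (adjusted p = 0.0498). Slc9a2 was lost without any 1 of the 5 sham replicates or 16 h replicate 1 (adjusted p up to 0.111). The other 3 were lost in 18 to 24 of the 30 omissions, with an adjusted p of at most 0.167. Using all 32 arrays, Slc9a2 (0.64, adjusted p = 0.0282) and Slc23a2 (0.73, adjusted p = 0.032) passed, and Slc22a6 (adjusted p = 0.0694) and Slc38a1 (adjusted p = 0.464) did not. Without centring 0 were higher and 3 lower (65 and 206 of all features), and with all 32 arrays 2 were higher and 4 lower (107 and 124 of all features).

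The times were set against each other by comparing the 9 late arrays (24, 48 and 72 h) with the 11 early arrays (1, 3 and 6 h), a contrast without sham. Of the 147 carriers 7 were lower late and 6 higher, where 4.37% of all features were lower and 2.67% higher. In each of the 13 the late and early ranges overlapped, so the difference lies in the centre of the groups and not in every array. Among the lower ones, Slc9a5 had a late median of -0.41 (-1.23 to 0.31), against an early median of 0.46 (-0.15 to 1.16), a log2 change of -0.86 (adjusted p = 0.00993). Slc4a2 had -0.76 (-1.36 to -0.31) late, against -0.05 (-0.51 to 0.72) early (-0.75, adjusted p = 0.00965). Both genes had late medians below all 5 sham arrays.

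The organic ion carriers Slc22a6 and Slc22a5 were lower late too. Slc22a6 had a late median of -0.23 (-0.32 to 0.42), against 0.49 (0.04 to 0.82) early (-0.56, adjusted p = 0.0103), and Slc22a5 had -0.41 (-0.75 to 0.25), against 0.30 (-0.20 to 0.74) (-0.55, adjusted p = 0.00995). Slc25a1, the mitochondrial citrate carrier, had -0.37 (-0.55 to 0.35) late, against 0.38 (-0.18 to 1.60) early (-0.77, adjusted p = 0.0236). Slc28a2, a purine nucleoside carrier, changed by -1.10 (adjusted p = 0.0319), with a late range of -3.71 to -0.87. Slc2a4, the insulin-responsive glucose carrier, changed by -0.47 (adjusted p = 0.0425), with a late median of 0.19 and an early median of 0.70. Its sham arrays ran from -0.12 to 0.66, so the late median lay inside the sham range and the early median above it.

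Of the 6 that were higher late, 3 carry amino acids or peptides. Slc38a1 had a late median of 0.14 (-0.75 to 0.78), against -0.47 (-1.18 to 0.26) early, a log2 change of 0.63 (adjusted p = 0.0115). Slc1a1, the neuronal and epithelial glutamate carrier, had -0.13 (-0.91 to 0.73), against -0.58 (-1.58 to -0.31) (0.73, adjusted p = 0.0131). Slc15a2, the high-affinity peptide carrier known from kidney and type II pneumocytes, had 0.29 (-0.70 to 1.30), against -0.80 (-1.44 to 0.40) (0.90, adjusted p = 0.0167). The sham arrays ran from 0.18 to 0.49 for Slc38a1, from -0.68 to 0.22 for Slc1a1 and from -0.39 to 0.07 for Slc15a2. The early median of Slc38a1 and of Slc15a2 lay below every sham array, and that of Slc1a1 lay inside the sham range. The late median of Slc38a1 was still below every sham array, that of Slc15a2 was above them, and that of Slc1a1 was inside. Slc25a39 changed by 0.84 (adjusted p = 0.0261) and Slc14a1, a urea carrier of red cells and vessels, by 0.84 (adjusted p = 0.0267). Slc2a1 stood at a late median of -1.81, against -2.15 early (0.43, adjusted p = 0.0383).

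**Figure D5:**
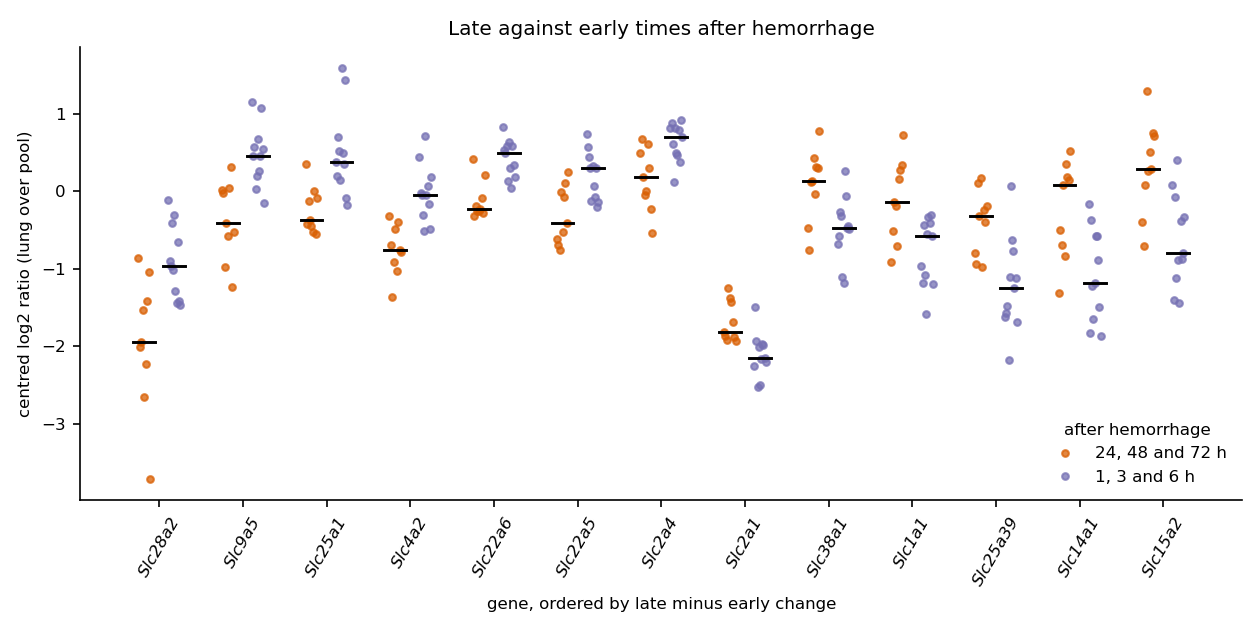
Centred log2 ratio of lung over the organ pool (vertical axis) for the 13 solute carrier genes called between late and early times, with the 9 arrays of 24, 48 and 72 h (orange, left) and the 11 arrays of 1, 3 and 6 h (purple, right) for each gene. Points are arrays and bars are medians. The ranges overlap in all 13, as for Slc22a6 with -0.32 to 0.42 late and 0.04 to 0.82 early.

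Of the 13, 7 passed with each array left out in turn (Slc4a2, Slc9a5, Slc22a5, Slc22a6, Slc38a1, Slc1a1 and Slc15a2). Slc25a1 was lost without 72 h replicate 2 (adjusted p = 0.0504) and Slc25a39 without 24 h replicate 3 (adjusted p = 0.0656). Slc14a1 and Slc28a2 were each lost in 6 omissions (up to 0.0624 and 0.0713), Slc2a1 in 13 (up to 0.0788) and Slc2a4 in 14 (up to 0.105). In the fit with all 32 arrays, which adds spread but no late or early array, 6 passed: Slc9a5, Slc22a5, Slc22a6, Slc25a1, Slc15a2 and Slc25a39. Of the 4 red cell markers, Rhag (1.09) and Alas2 (0.72) were higher late (adjusted p = 0.00686 and 0.0345), and Slc4a1 (-0.21) and Gata1 (-0.28) were not called. Of the 10 lung markers, 2 were lower late (Scgb1a1, -1.38, adjusted p = 0.0167, and Sftpa1, -0.83, adjusted p = 0.0383). Of 6 brain markers 1 was called lower and 0 higher, and of 4 intestine markers likewise 1 and 0. Kap was lower and the 1 call among 5 kidney markers (-0.96, adjusted p = 0.0131). The median change over these 5 was 0.40, so most of them went the other way. Mmp8 was higher among 3 neutrophil markers (1.5, adjusted p = 0.0359). The part of these markers in the carriers' changes was not tested.

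By substance group, the 17 carriers of bile acids, organic ions and peptides held 4 of the 11 calls of the joint test and 3 of the 13 late against early, where 5.69% and 7.04% of all features were called. The 4 include Slc22a6, Slc22a8 and Slc22a25, whose annotated spans lie together, and the group was not tested. Their median changes at 24 and 72 h were 0.03 and 0.29. Of the 17 chloride and bicarbonate carriers 1 (Slc4a2) was called late against early. None of the 10 plasma membrane carriers of transmitters, osmolytes and creatine, the 9 of phosphate, sulphate and carboxylate, or the 4 of fatty acids was called in any of the 11 comparisons. Over all 147, the median log2 change lay between -0.05 (3 h) and 0.03 (72 h), against -0.01 (1 h) to 0.04 for all features at the same times.

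Some members of the Slc22 family lie close together in the genome, and others lie on different chromosomes. In GRCr8 Slc22a8 (chr1:214925506-214945516) ends 5976 bases before Slc22a6 (chr1:214951493-214960317) starts. The annotated span of Slc22a25 (chr1:214767837-214956535) covers Slc22a8 and shares 5043 bases with Slc22a6, so signals of these 3 genes may not be fully separate. Their courses differed: Slc22a8 was lowest at 24 h, Slc22a6 at 48 h and Slc22a25 at 72 h, a difference between genes that was not tested. Slc22a5 (chr10:38509072-38536240) lies 97857 bases from Slc22a4.

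Transport genes outside the symbol rule were looked at for comparison. Of 13 organic anion carriers with Slco symbols, which are solute carriers too, 1 fell at 72 h (Slco1a3, -1.42, adjusted p = 0.0288) and none passed in the other comparisons. Of 6 measured sodium pump genes, 2 were called at 72 h and late against early. Atp1b1, a beta subunit of the pump, changed by -1.13 at 72 h (adjusted p = 0.0457) and by -1.10 late against early (adjusted p = 0.00346), and Atp1a4, an alpha subunit known from sperm, by -1.24 (adjusted p = 0.0246) and -0.87 (adjusted p = 0.0116). Of 6 sodium channel and aquaporin genes 0 passed in any comparison, with Scnn1a, the alpha subunit of the epithelial sodium channel, between -0.06 and 0.22 at the 7 times against sham.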

How the data were processed

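The authors deposited 1 log2 ratio of lung over the organ pool per spot for each of 32 arrays, and 100% of them equal the log2 of a ratio in steps of 0.01 within a tolerance of 0.001. No source used here gives the dyes, the scanner, or how background and dye bias were handled. From these, each array was centred on its median (medians -0.38 to 0.06 before), spots were averaged per gene symbol, and features with values on at least 2 arrays of each of the 9 groups were kept (5993). Between 12151 and 12895 of 13056 spots had a value, and the number of arrays limits the precision. limma 3.58.1 in R 4.3.3 was fitted to 30 arrays with 9 groups, with Benjamini-Hochberg adjustment over all features and an adjusted p under 0.05 as the call. The script was tested on simulated data. The members and lists were chosen with earlier results of these data known. Named genes are the 10 highest and 10 lowest in unbled lung, up to 6 calls in each direction per comparison (or the smallest p values), the extremes of each substance group and a set of 12 genes, and the text gives part of them. Alternatives were all 32 arrays, no centring, quantile normalization, no filter, ratios at or below 0.05 as missing, probes by accession, a replicate block and leaving out each array.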

Additional observations from a re-analysis of the deposited data

Results flagged for a closer look

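Of 148 groups of 4 to 10 arrays tested for a single array far from the rest, 11 were picked out, and chance picks about 1 in 20. In sham lungs, replicate 1 stood apart for Slc1a1 (0.218, others -0.682 to -0.505), Slc22a23 (1.21, others 0.243 to 0.519), Slc28a2 (-3.06, others -1.18 to -0.574) and Slc5a5 (0.543, others 0.149 to 0.251). Sham replicate 4 stood apart for Slc25a4 (-0.118, others -0.804 to -0.645) and sham replicate 6 for Slc6a20a (-0.166, others 0.0925 to 0.193). At 6 h, replicate 5 stood apart for Slc12a3 (0.0139, others 0.449 to 0.604) and Slc5a5 (-0.299, others 0.0345 to 0.168). At 6 h, replicate 4 stood apart for Slc22a24 (-1.22, others -0.0593 to 0.0832) and Slc40a1 (-0.634, others -1.29 to -1.20), and replicate 3 for Slc28a2 (-0.656, others -1.46 to -1.28).

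The late times differed from the early times, by the test of that difference, in 13 carriers. The log2 differences were 0.84 for Slc14a1, 0.90 for Slc15a2, 0.73 for Slc1a1, 0.84 for Slc25a39, 0.43 for Slc2a1 and 0.63 for Slc38a1. They were -0.55 for Slc22a5, -0.56 for Slc22a6, -0.77 for Slc25a1, -1.10 for Slc28a2, -0.47 for Slc2a4, -0.75 for Slc4a2 and -0.86 for Slc9a5.

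On the arrays left out, carriers stood more than 2 log2 units above the highest control array. On sham replicate 2 these were Slc10a1 (1.72, highest control -0.417), Slc10a2 (2.32, highest control -1.22), Slc17a6 (-0.0342, highest control -2.08), Slc27a2 (3.14, highest control -0.586), Slc28a2 (1.75, highest control -0.986) and Slc38a4 (3.04, highest control 0.645). On 16 h replicate 3 these were Slc17a8 (2.34, highest control 0.0621), Slc25a10 (2.91, highest control 0.396), Slc26a3 (3.58, highest control 0.522), Slc27a2 (1.64, highest control -0.586) and Slc38a4 (3.00, highest control 0.645). For these 5 the highest of all kept arrays stood at 0.927, 2.31, 3.23, -0.33 and 1.97.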

How the results depend on the processing

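Of 47 calls of 28 carriers, 14 passed with each array left out, 9 passed under all 7 other settings, 8 passed both and 0 turned direction. The counts below are of carriers called, with those over all 5993 features (or those the setting tests) in brackets. With 1 array left out they ran from 2 to 11 at 3 h (39 to 561), 0 to 4 at 6 h (0 to 112), 2 to 11 at 24 h (31 to 326), 0 to 4 at 48 h (2 to 114), 0 to 9 at 72 h (33 to 473), 0 to 7 for the mean of 7 times (64 to 360), 3 to 20 for any time (121 to 558) and 9 to 20 for late against early (221 to 568). Carriers called stayed at 0 at 1 h (0 to 3), at 16 h (0 to 14) and for sham against control (0). Without 16 h replicate 1 or 2 the lone 16 h array is assumed to vary like the others. With all 32 arrays the counts were 0 at 3 h (28), 1 at 16 h (99), 3 at 24 h (113), 0 at 48 h (5), 2 at 72 h (181), 6 for the mean of 7 times (231), 2 for any time (136) and 6 for late against early (196). Without centring they were 14 at 24 h (419), 1 at 48 h (74) and 3 at 72 h (338), and with quantile normalization 4 at 48 h (177) and 11 at 72 h (497). At 72 h the count was 3 without the filter (325), 8 with the lowest ratios missing (397) and 3 with probes by accession (359). As reported, the calls over all features were 168 at 3 h, 4 at 16 h, 213 at 24 h, 70 at 48 h, 354 at 72 h, 205 for the mean of 7 times, 341 for any time and 422 for late against early. The cause was not tested. The replicate block gave 4 at 3 h (56), 3 at 24 h (161), 0 at 48 h (3), 1 at 72 h (123), 2 for the mean of 7 times (108), 3 for any time (74) and 8 for late against early (254). By median, samples of the same number did not correlate more than others. The 94 pairs of the same number correlated at -0.42 to 0.35 (median -0.005), and the 302 other pairs at -0.39 to 0.43 (median 0.012). Of 29 arrays 7 correlated best with their own number. With few arrays per time these values do not settle whether the numbers mark a pairing. Resting ratios moved with sham replicate 2 kept for Slc38a2 (1.62) and Slc10a2 (-1.68). Few arrays per time limit the precision.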
